A study of Mus musculus with 6 samples.

Results

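Prdx2 encodes peroxiredoxin 2, and its signal in plasma extracellular vesicles (EVs) was read by 1 of the 50 mRNA probes that stand beside 14192 small RNA probes on a mouse small RNA array. The gene was chosen by the values described here, namely its log2 signal in the EVs of both groups, the difference between the groups and its rank among the mRNA probes, so these values are a description and no test is given for Prdx2. The probe, A_51_P147207, is annotated to transcript NM_011563 and lies on 10 spots of every array, which makes it 1 of 14242 non-control probes. The RefSeq gene table of GRCm38.p6 lists 2 transcripts for Prdx2, and which of them the probe binds was not given in the sources used here.

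Peroxiredoxin 2 is a cytosolic peroxidase that reduces hydrogen peroxide through a reactive cysteine, which is then restored by thioredoxin. It is one of the most abundant proteins of red blood cells, and mice that lack it develop hemolytic anemia. EVs are membrane particles released by cells, and those of plasma carry RNA, often as fragments, from blood cells, vessel wall and other tissues.

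The study compared plasma EVs of non-cancer mice (non-cancer-EVs, n = 3) with plasma EVs of mice bearing tumors of LLC cells (cancer-EVs, n = 3), with 1 array per sample. LLC is the Lewis lung carcinoma line, a mouse lung cancer that the study transplanted into the lung, and the methods name C57BL/6J mice. The labels give no age at sampling and do not say whether plasma of several mice was pooled, so the spread between samples may be technical in part. Both groups shared the same isolation by ultracentrifugation, after steps meant to remove cells and platelets. The treatment label, the same for all 6 samples, speaks of irradiated blood of healthy volunteers, whereas the organism and growth labels and the study's methods give mice, and the methods used here name no irradiation of this blood; whether it was irradiated was not tested.

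Each of the 6 arrays held 14692 non-control spots, of which 89.7% to 98.3% were well above background, and no spot was saturated. Array medians of the unnormalized signal ran from 24.7 to 44.4, and the number of arrays limits the precision. All arrays came from 1 scan, and the headers place the 3 cancer-EVs arrays and non-cancer-EVs 1 in row 1 of the slide and non-cancer-EVs 2 and 3 in row 2.

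Whether the Prdx2 signal follows red cells could not be checked against other genes. None of the 24 red cell genes listed for this purpose, hemoglobins and Alas2 among them, had a probe among the mRNA probes matched to a gene, and neither did the 10 platelet, 13 white cell, 8 liver and 9 lung epithelium genes. Of 54 genes of oxidant defence, only Prdx2 and Gsta4 were on the array. The cellular source of the Prdx2 signal was therefore not tested. Fewer vesicles from one source and less Prdx2 RNA per vesicle cannot be told apart in these samples, nor can whole mRNA and a fragment of it.

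Prdx2 was bright on every array. In the non-cancer-EVs its unnormalized signal, as the median over its spots, was 301 in replicate 1, 544 in replicate 2 and 1261 in replicate 3. In the cancer-EVs it was 428 in replicate 1, 443 in replicate 2 and 281 in replicate 3. The median of the 77 negative control spots was 1.02 to 1.26 on these arrays after background subtraction, and all 10 Prdx2 spots were well above background on all 6 arrays. Before normalization, non-cancer-EVs 3 was therefore the highest sample and cancer-EVs 3 the lowest.

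After quantile normalization between arrays, the log2 signal of Prdx2 was 8.57, 9.54 and 9.83 in non-cancer-EVs 1, 2 and 3. It was 9.11, 8.35 and 8.15 in cancer-EVs 1, 2 and 3. The groups overlapped, since cancer-EVs 1 lay above non-cancer-EVs 1, and the cancer-EVs value was lower in 8 of the 9 pairs of 1 array from each group. The mean log2 signal was 9.31 ± 0.66 (SD, n = 3) in non-cancer-EVs and 8.54 ± 0.50 (SD, n = 3) in cancer-EVs. The log2 difference, cancer-EVs minus non-cancer-EVs, was -0.77 with a standard error of 0.48, and the mean was 1.71-fold higher in non-cancer-EVs. This difference was 1.32 times the pooled SD between the arrays of a group, and without non-cancer-EVs 3 it was -0.51.

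**Figure D1:**
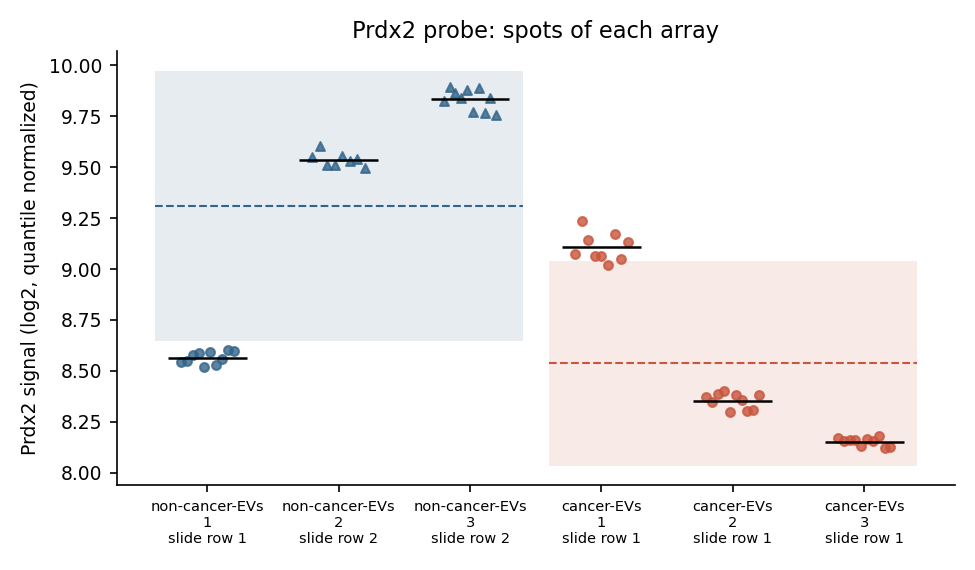
Each point is 1 spot of the Prdx2 probe (y axis, log2 signal after quantile normalization) on each of the 6 arrays (x axis), with circles for slide row 1 and triangles for slide row 2. Black lines are array means, and dashed lines with bands are group means ± SD over 3 arrays. The spots of an array lie close together, and the 2 triangle arrays, with log2 means of 9.54 and 9.83, are the highest.

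The arrays differed by far more than the spots within them. The SD over the spots of an array was between 0.02 (cancer-EVs 3) and 0.07 (cancer-EVs 1) on the log2 scale, whereas the 6 arrays spanned 1.68, or 3.21-fold. Feature Extraction marked 2 Prdx2 spots on non-cancer-EVs 2 and 1 on cancer-EVs 1 as outliers, and these were left out. With them kept, the log2 difference was -0.76. The spots of an array share 1 labeled RNA sample, so they show the precision of the reading and not the spread between mice.

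The Prdx2 values divided by slide row within the non-cancer group. Non-cancer-EVs 2 and 3, both in row 2, exceeded non-cancer-EVs 1 in row 1 by 0.97 and 1.27 in log2 signal. Within row 1, the mean of the 3 cancer-EVs differed from non-cancer-EVs 1 by -0.028, with single differences of 0.54 for cancer-EVs 1, -0.21 for cancer-EVs 2 and -0.41 for cancer-EVs 3. Row 2 held no cancer-EVs array, so this within-row value rests on 1 non-cancer array. Slide columns 1 and 2 held 1 array of each group. Prdx2 was lower there in cancer-EVs, by a log2 difference of -0.43 in column 1 and -1.48 in column 2. In both columns the non-cancer array was in row 2 and the cancer array in row 1, so group and row cannot be told apart. The part of slide row in the group difference was not tested.

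Non-cancer-EVs 1 was low for most other mRNA probes as well, against the arrays of both rows. Of the 47 mRNA probes well above background on at least 3 arrays, Prdx2 included, 38 were higher on both row 2 arrays than on non-cancer-EVs 1. The median log2 shift of the 47 was 0.47, against 1.12 for Prdx2. By this shift Prdx2 ranked 8 of 50. The share over all probes is not given, so the shift is not read as particular to the mRNA probes. The 3 cancer-EVs arrays, which share row 1 with non-cancer-EVs 1, also exceeded it, by a median log2 difference of 0.42 over the 47 probes. The median log2 signal of the 40 other mRNA probes that were well above background on all arrays was 6.16 on non-cancer-EVs 1, 6.54 and 6.61 on non-cancer-EVs 2 and 3, and 6.46, 6.63 and 6.40 on cancer-EVs 1, 2 and 3. Relative to this median, the log2 signal of Prdx2 was 2.40, 2.99 and 3.22 in non-cancer-EVs 1, 2 and 3 and 2.65, 1.72 and 1.76 in cancer-EVs 1, 2 and 3. On this scale the groups still overlapped, the difference was -0.83 over all arrays, and within row 1 it was -0.36.

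**Figure D2:**
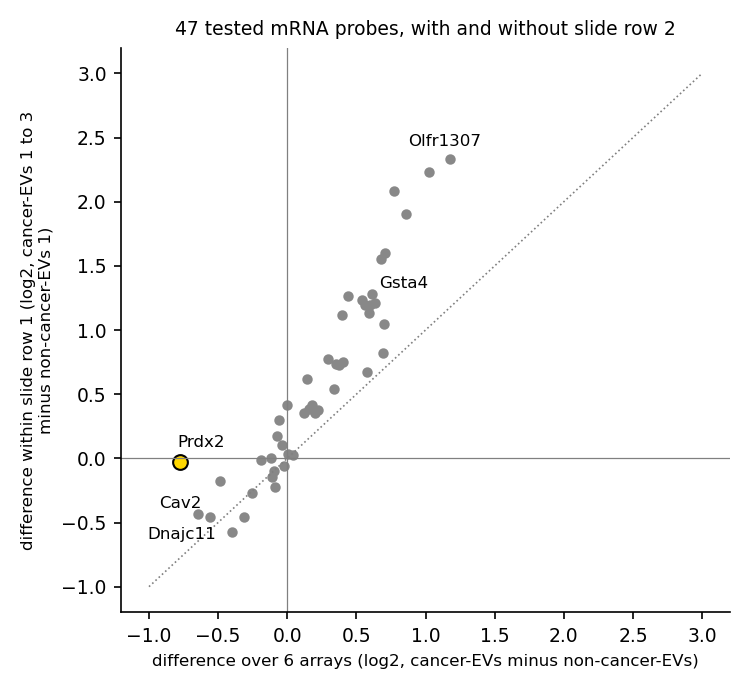
Each point is 1 of the 47 tested mRNA probes, with its log2 difference (cancer-EVs minus non-cancer-EVs) over all 6 arrays on the x axis and within slide row 1 on the y axis, where the dotted line marks equal values. Prdx2, the yellow point, is farthest to the left at -0.77 and lies near 0 on the y axis, at -0.028.

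By mean log2 signal over the 6 arrays Prdx2 ranked 9 of the 50 mRNA probes, whose levels ran from 2.23 to 11.66 among those tested. It ranked 8 on each of the 3 non-cancer arrays and on cancer-EVs 1, and 12 on cancer-EVs 2 and 3. Among all probes, small RNA probes included, it was brighter than 86.2% (cancer-EVs 3) to 93.5% (non-cancer-EVs 3). Probes differ in binding and in length, so these ranks order brightness and not amounts of RNA. The brighter mRNA probes included that of Olfr166, an olfactory receptor gene with a log2 mean of 9.91, named after its value was seen.

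The neighbors of Prdx2 in this order did not all stand apart from it. Just above were Olfr1307, another olfactory receptor gene, with a log2 mean 0.53 higher, and Duox1, an oxidase that makes hydrogen peroxide, with a log2 mean 0.39 higher. Just below were Apoe, the lipoprotein component, 0.57 lower, and Gpi1, the glycolytic enzyme glucose-6-phosphate isomerase, 0.73 lower. The SD of Prdx2 over the 6 arrays was 0.68, larger than the distance to every one of these neighbors except Gpi1. Duox1 was nevertheless brighter than Prdx2 on all arrays but 1, and Apoe was dimmer on 5 of 6.

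**Figure D3:**
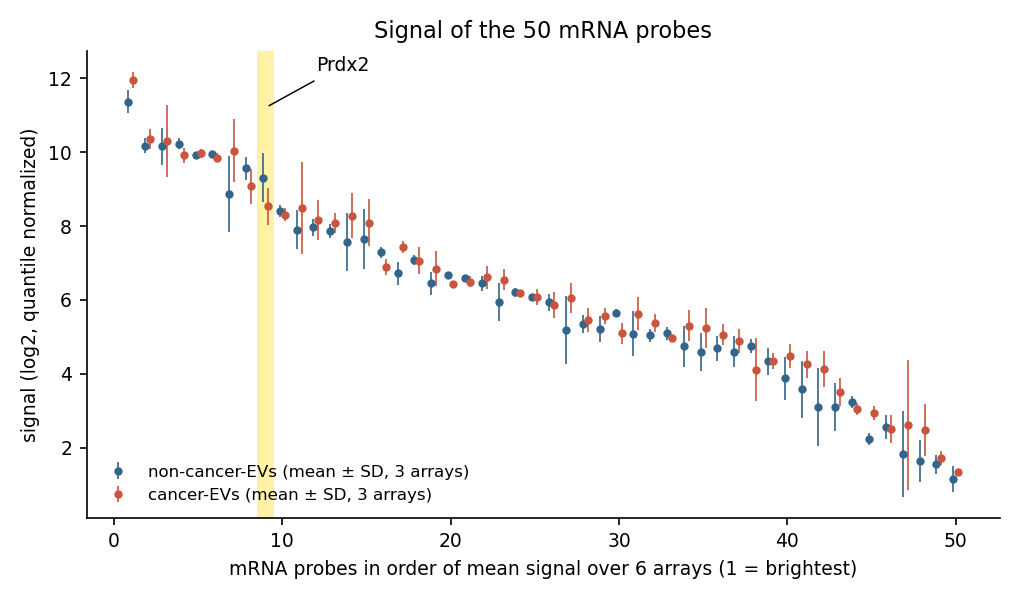
The 50 mRNA probes are ordered by mean signal (x axis, rank 1 is the brightest), with the log2 signal of each group as mean ± SD over 3 arrays (y axis). Prdx2, the shaded probe at rank 9, has its cancer-EVs mean of 8.54 below its non-cancer-EVs mean of 9.31, and the error bars overlap.

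By log2 difference Prdx2 ranked last of the 50 mRNA probes, which means the most negative value. The median log2 difference of the 47 tested mRNA probes was 0.20, with 31 above and 16 below 0, and that of all 13779 tested probes was -0.07. Past 1.4-fold, the cutoff of the study's methods, 4 of the 47 were lower in cancer-EVs by fold change alone, against 2.57% of all tested probes, and 15 were higher, against 7.66%. The lower ones were Prdx2, Cav2, Dnajc11 and Duox1, and just inside and outside the cutoff lay Duox1 at -0.49 and the next probe, Gm9789, named after its value was seen, at -0.40. Nothing is read from this position, because it is part of how Prdx2 was chosen. Within slide row 1, which held 1 non-cancer array, Prdx2 ranked 39 of 50. The log2 differences there were -0.43 for Cav2, -0.46 for Dnajc11, -0.18 for Duox1 and -0.57 for Gm9789.

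At the study's cutoffs, an unadjusted p below 0.05 together with 1.4-fold, limma called 3 of the 47 mRNA probes higher and 1 lower, against 3.02% and 1.72% of all tested probes. These were Mzb1, Pex11a and Lhfp among the higher and Dnajc11 as the lower one, named after their values were seen. After Benjamini-Hochberg adjustment limma called 0 of all 13779 tested probes, and so 0 mRNA probes. At an unadjusted p below 0.05 alone there were 5 mRNA probes, and the share of all probes at that cutoff is not given. The methods' t-test likewise called 0 after adjustment, with 4 unadjusted. Lhfp was well above background on only 3 of 6 arrays, with log2 signals of 2.11 to 2.43 in non-cancer-EVs and 2.73 to 3.11 in cancer-EVs, and it was not tested where all 6 arrays were required. Of the 4 probes, Mzb1, a plasma cell and B cell gene, remained past both cutoffs with each array left out in turn, whereas Dnajc11 fell short without cancer-EVs 2 and without cancer-EVs 3. Pex11a and Lhfp each fell short in 3 of the 6 sets of 5 arrays. Mzb1 did fall short without normalization between arrays and with slide column as a block, and without normalization none of the 4 reported probes was past both cutoffs.

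Gsta4, a glutathione transferase that detoxifies lipid peroxidation products, was the other oxidant defence gene. Its log2 signal was 3.21, 4.14 and 4.28 in non-cancer-EVs 1, 2 and 3, and 4.64, 4.72 and 4.11 in cancer-EVs 1, 2 and 3. The groups overlapped, and the log2 difference was 0.61, with an adjusted p of 0.690 from limma. Thus the group difference of Gsta4 had the sign opposite to that of Prdx2, and this contrast between the genes was not tested. Like Prdx2, Gsta4 was lowest among the non-cancer arrays in replicate 1, and within slide row 1 its log2 difference was 1.28.

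The mRNA probes whose log2 values over the 6 arrays were most like those of Prdx2 were Dnajc11, Cav2 and Gsdmd, with Pearson r of 0.85, 0.80 and 0.70. Dnajc11 encodes a mitochondrial chaperone, Cav2 a caveolin of membrane pits, and Gsdmd gasdermin D, which forms membrane pores during pyroptosis. The 6 points share the normalization and the group labels, and r over all 49 other mRNA probes had a median of 0.12, with 31 above 0. Without the 2 arrays farthest from the Prdx2 median, non-cancer-EVs 2 and 3, r was 0.71, 0.90 and 0.92 over 4 arrays. These 4 arrays were part of the choice of the 3 probes. The spread of r over the other probes on them is not given, so these values do not check the likeness.

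Dnajc11 had log2 signals of 5.55, 5.71 and 5.70 in non-cancer-EVs and 5.43, 4.90 and 4.97 in cancer-EVs, in order of replicate, without overlap. Of the 47 tested mRNA probes, 6 had no overlap between the groups. The share over all probes is not given, so nothing is read from this. Cav2 had 4.54, 4.92 and 4.81 in non-cancer-EVs and 4.94, 4.16 and 3.24 in cancer-EVs, and cancer-EVs 1 was its highest value. The log2 difference was -0.56 for Dnajc11 and -0.65 for Cav2, and in both genes cancer-EVs 1 stood above the other cancer arrays, as it did for Prdx2. Both genes were picked by r over these same arrays, so this shared order is no separate result. Cancer-EVs 1 was also the highest cancer array for some other mRNA probes, Gpi1 among them. Gsdmd spanned only 0.29 in log2 signal over the 6 arrays, so its likeness is one of order and not of size. Within slide row 1 the log2 difference of Dnajc11 was -0.46 and that of Cav2 was -0.43, whereas that of Prdx2 was -0.028.

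**Figure D4:**
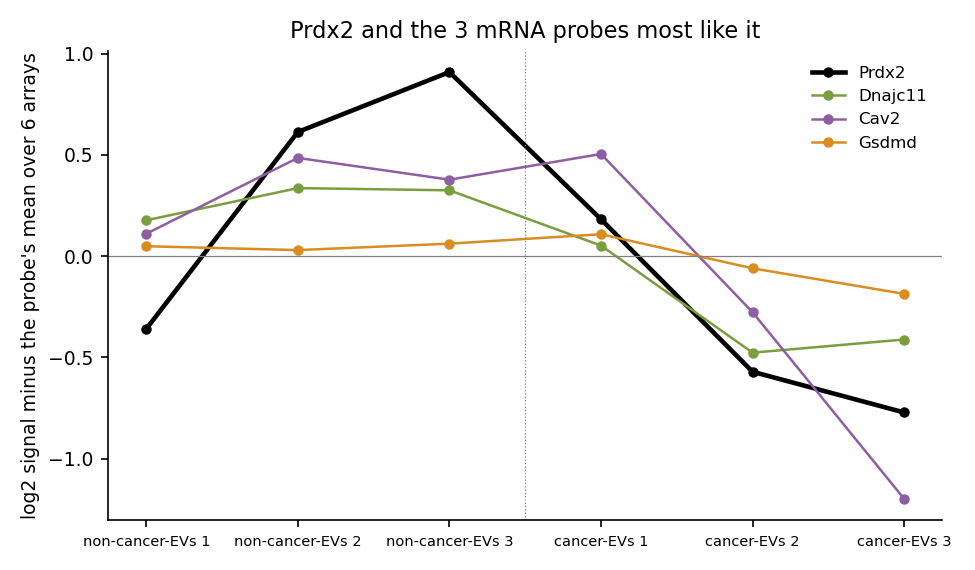
For Prdx2 and the 3 mRNA probes with the highest Pearson r, the y axis gives the log2 signal minus the probe's mean over the 6 arrays, for each array on the x axis. All 4 probes have their lowest values in cancer-EVs 2 and 3, and in non-cancer-EVs 1 Prdx2 lies below its mean (-0.36) while the other 3 lie above theirs.

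At the other end, Ppara, a fatty acid receptor of the nucleus, had the lowest r with Prdx2, -0.90. Its probe was well above background on 0 of 6 arrays, so its values have no reliable order. Olfr1307 had the largest positive log2 difference of the mRNA probes, 1.17, with groups that overlapped and an adjusted p of 0.690 from limma. Its r with Prdx2 was -0.21, and its lowest array was non-cancer-EVs 1.

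The direction of the Prdx2 difference was the same under each scaling of the arrays, and its size moved most when slide row entered the fit as a block. Without normalization between arrays the log2 difference was -0.66, with the 75th percentile -0.76, with cyclic loess -0.65 and with normexp on spot medians -0.70. Without non-cancer-EVs 1, the only non-cancer array in slide row 1, it was -1.15, and without cancer-EVs 1 it was -1.06.

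**Figure D5:**
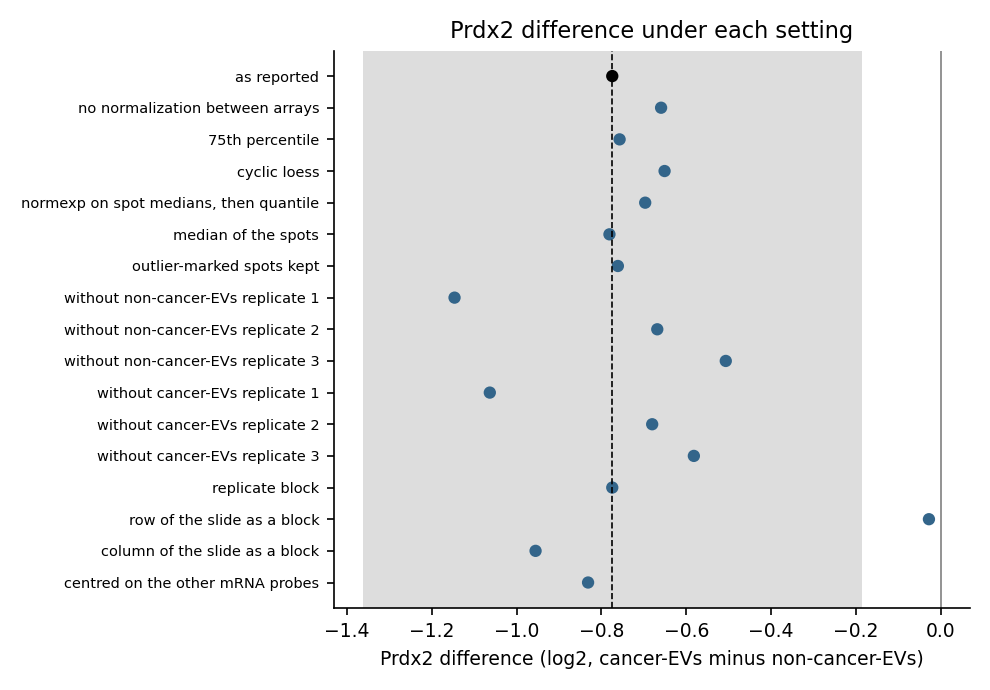
The Prdx2 log2 difference (x axis, cancer-EVs minus non-cancer-EVs) is shown for each setting (y axis), with the reported value of -0.77 in black on the dashed line and a gray band of 1 pooled SD between arrays (0.59) around it. All settings lie within the band except the block on slide row, at -0.028.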

How the data were processed

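3 samples of plasma EVs from non-cancer mice and 3 from LLC tumor-bearing mice were measured on 1-color (Cy3) small RNA arrays. Groups follow the disease label. The authors deposited Feature Extraction 11.0.1.1 output, in which the intensity of each spot is background-subtracted and detrended but not normalized between arrays. A deposited table of log2 values, quantile normalized by the authors in GeneSpring, holds 14192 small RNA probes and 0 mRNA probes, so Prdx2 was taken from the spot files.

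Control and outlier-marked spots were left out. Intensities were quantile normalized over all non-control spots, set to at least 1, converted to log2 and averaged per probe. A probe counted as above background on an array where this held for at least 50% of its spots, and probes that did so on at least 3 of the 6 arrays were fitted together with limma 3.58.1 in R 4.3.3 (two-sided, no covariate, Benjamini-Hochberg over all probes), after a test on simulated data. The accessions of 46 of the 50 mRNA probes matched the RefSeq table of GRCm38.p6, used for names only since the headers give another build. Named were Prdx2, the 3 probes with the highest and the 1 with the lowest r with it, its 4 neighbors in level, the largest rise and fall, and members of the gene lists; Olfr166, Gm9789, Mzb1, Pex11a and Lhfp were named outside this rule, after their values were seen. Prdx2, the lists and the tests were chosen with earlier results of these data known. Alternatives covered normalization, background correction, spot summary, filter, test, blocks and leaving out each array.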

Additional observations from a re-analysis of the deposited data

How the results depend on the processing

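The log2 difference of Prdx2 kept its sign under every setting run. Among the normalizations, background correction and spot summaries it was between -0.78 (median of the spots) and -0.65 (cyclic loess), and with each array left out between -1.15 and -0.51. The replicate block, which by construction leaves this value unchanged, gave -0.77. The column of the slide as a block gave -0.96. That value rests on columns 1 and 2, where the non-cancer arrays were in row 2 and the cancer arrays in row 1. A block on slide row gave -0.028, since row 2 held non-cancer arrays alone. The deviations of same-numbered arrays correlated with r = 0.09, 0.25 and -0.22, and the numbers were not taken to pair arrays. Centring on the other mRNA probes, chosen after seeing the data, gave -0.83. Prdx2 ranked 9 by level under all settings that reordered the probes, and by difference it ranked 50 except with the block on slide row (39) and when non-cancer-EVs 3 (48) or cancer-EVs 2 (49) was left out; ranks under the blocks were added after seeing the data. The 4 mRNA probes past both cutoffs became 2 under normexp on spot medians, 8 with the replicate block, 18 with the slide row and 9 with the slide column as a block, and 9 after centring on the other mRNA probes. With each array left out they numbered from 2 (without cancer-EVs 2) to 11 (without cancer-EVs 3), with 8 when non-cancer-EVs 3 and 9 when cancer-EVs 1 was left out. The counts with the slide column as a block, after centring, without cancer-EVs 1 and without non-cancer-EVs 1 (4) include Prdx2 itself, which was chosen on this contrast, so its place in them is no test of it. Without normalization between arrays the count was also 4, but it shared 0 of the 4 reported probes, and requiring all 6 arrays above background left 3. Over the 19 alternatives Mzb1 was past both cutoffs in 17, Dnajc11 in 14, Lhfp in 13 and Pex11a in 12. The cause of these shifts was not tested. The share of all probes at each setting is not given, so no count is read as particular to mRNA probes. No setting gave an mRNA probe an adjusted p below 0.05.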
